A study of Homo sapiens with 6 samples.

Results

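The nuclear-encoded subunits of oxidative phosphorylation were examined in FaDu cells, a long-established human line grown from a hypopharyngeal tumour that serves as a model of head and neck squamous carcinoma. Cells that received BB608, a compound known here only by that code name, were compared with cells that received its vehicle DMSO. Each group had 3 biological replicates, and the sources used here state neither dose nor treatment time. Both groups come from 1 cell line, which limits them as a model. RNA was sequenced after removal of ribosomal RNA, and the authors' deposited table gives 1 pooled value per group and coding sequence in FPKM, a fragment count scaled by sequence length and library size. Members were chosen by gene name: NDUFA, NDUFB, NDUFC, NDUFS, NDUFV, UQCR, SDHA to SDHD, COX4 to COX8 and ATP5 names, without the NDUFAF assembly factors. They comprised 89 of 20660 gene names and 330 of 82428 coding sequences. Complex I had 40 names, complex II 4, complex III 8, complex IV 18 and complex V 19.

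Oxidative phosphorylation takes place in the inner mitochondrial membrane. Complex I oxidizes NADH and complex II oxidizes succinate, both pass electrons to ubiquinone, complex III passes them on to cytochrome c, and complex IV reduces oxygen to water. Complexes I, III and IV pump protons, and complex V, the ATP synthase, makes ATP as the protons flow back. Most subunits are encoded in the nucleus and imported, while the mitochondrial genome encodes a few in complexes I, III, IV and V. Squamous carcinoma cells ferment glucose but commonly keep a working respiratory chain.

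No member was called changed. At the authors' q under 0.05, Cuffdiff called 0 of the 245 tested member coding sequences, against 0.354% of all 34474 tested coding sequences, of which 0.142% were higher and 0.212% lower in BB608. Counted by gene, 0 of 79 members with a tested sequence were called, against 1.06% of 11429 genes. At an unadjusted p under 0.05 the authors' deposited table held 3 member coding sequences, or 1.22% of those tested, against 3.31% of all. By gene these were 3.80% of members, against 9.49% of all tested genes. All 3 were higher in BB608, as were 621 of the 1140 coding sequences of the whole table at p under 0.05. All 3 lie on chromosome 19, where 85 of 741 other genes kept, or 11.5%, had a coding sequence at p under 0.05, and 69 of their 89 such sequences were higher in BB608. With p-values taken from the normal distribution of the authors' statistic, at a scale fitted to their own p-values, 0 member coding sequences were called as well.

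These 3 members were NDUFB7, ATP5D and NDUFA11. NDUFB7, an accessory subunit of the membrane arm of complex I (hg19 chromosome 19, 14676889 to 14682874), stood at 35.7 FPKM in BB608 and 24.1 FPKM in DMSO. Its log2 fold was 0.56 with an implied SE of 0.20, and the authors' deposited table lists p = 0.00865 and q = 0.831. The implied SE, the only error at hand, is the fold divided by the authors' statistic and by the scale of 1.73 that relates that statistic to a normal quantile. ATP5D, the delta subunit in the central stalk of the ATP synthase (chromosome 19, 1241748 to 1244824), stood at 12.8 FPKM in BB608 and 8.17 FPKM in DMSO. Its log2 fold was 0.65 with an implied SE of 0.27, and the authors' deposited table lists p = 0.0208 and q = 0.997. NDUFA11, a membrane-arm subunit of complex I (chromosome 19, 5865836 to 5904017, a locus it shares with other gene names), had a coding sequence at 99.1 FPKM in BB608 and 84.2 FPKM in DMSO. That sequence had a log2 fold of 0.24 with an implied SE of 0.12, and the authors' deposited table lists p = 0.0372 and q = 0.997. None of the 3 passed the q threshold set over the whole table. That each fold exceeded its implied SE follows from the choice by p under 0.05 and adds nothing to it.

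The coding sequences of these 3 genes, which were picked by p, are shown for their base composition beside those of 3 members with low folds. Each line gives the central 60 nucleotides of the coding sequence, 5′ to 3′, from the GENCODE release 29 annotation of GRCh38, with G and C in capitals and A and T in lower case. The last 3 lines are the members with the lowest folds among those at 10 FPKM or more.
ATP5D: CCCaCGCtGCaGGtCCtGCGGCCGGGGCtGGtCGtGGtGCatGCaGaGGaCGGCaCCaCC
NDUFA11: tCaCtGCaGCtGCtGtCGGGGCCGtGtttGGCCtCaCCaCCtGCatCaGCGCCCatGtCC
NDUFB7: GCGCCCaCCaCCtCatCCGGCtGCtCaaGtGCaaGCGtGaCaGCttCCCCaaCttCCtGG
NDUFA5: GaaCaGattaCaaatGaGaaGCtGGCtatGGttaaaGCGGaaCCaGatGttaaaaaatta
NDUFA10: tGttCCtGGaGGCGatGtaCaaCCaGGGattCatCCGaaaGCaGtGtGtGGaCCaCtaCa
ATP5H: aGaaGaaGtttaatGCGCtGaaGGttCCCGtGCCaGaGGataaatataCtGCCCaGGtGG

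Over the whole coding sequence, G and C made up 68.3% of ATP5D, 65.9% of NDUFB7 and 61.9% of NDUFA11. The shares were 42.5% in NDUFA5, 50.2% in NDUFA10 and 44.9% in ATP5H. NDUFA7, on chromosome 19, had the next lowest fold at 10 FPKM or more, -0.13 on the log2 scale. Its share was 61.1%, so low folds did not go with a low share throughout. The median over the members kept was 51.6%.

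For levels, the FPKM values of all coding sequences under 1 gene name were added up, and a gene was kept when it had a tested coding sequence and a sum of 1 FPKM or more in the group where it was higher. This kept 76 of the 89 members. Of the 13 left out, 10 had no tested coding sequence, among them COX4I2, COX6A2, COX6B2, COX7A1, COX7B2, COX8C, NDUFA4L2, the pseudogene name COX6A1P2 and the read-through name NDUFC2-KCTD14. The other 3, SDHB, ATP5L2 and the pseudogene name ATP5EP2, were tested but lay under 1 FPKM in both groups. The 76 were abundant, with a median gene sum of 106.6 FPKM in BB608 and 101.5 FPKM in DMSO, against 11.8 FPKM in BB608 and 11.5 FPKM in DMSO over the 10783 other genes kept. In both groups 38 members reached 100 FPKM. All 89 members together held 12707 FPKM in BB608 and 12676 FPKM in DMSO, which was 2.53% and 2.58% of all FPKM in the table. The log2 ratio of these sums was 0.00. In bulk RNA, fewer mitochondria-rich cells and less RNA per cell cannot be told apart, and FPKM is a share of each library and not an amount per cell.

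**Figure D1:**
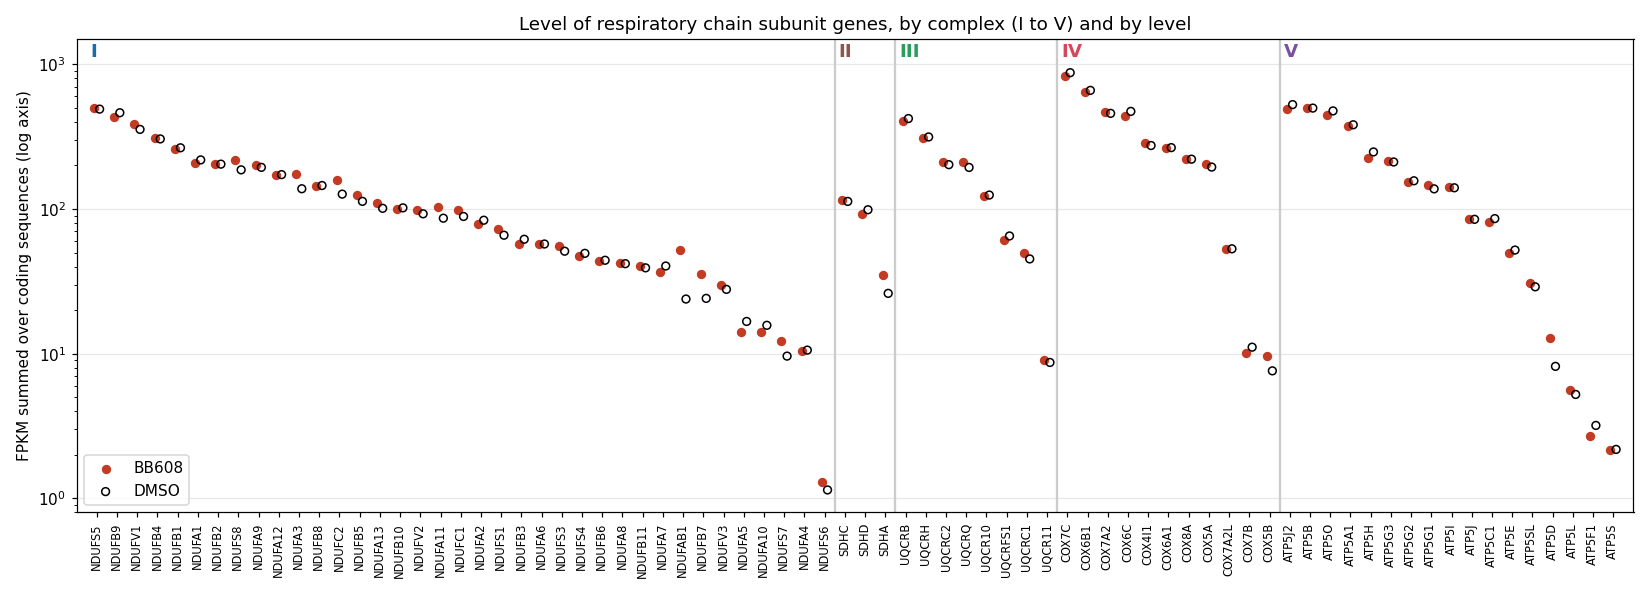
Gene sums of the 76 members kept, in FPKM on a log axis, ordered by complex (I to V) and by level. Filled points are the authors' pooled values in BB608 and open points those in DMSO. No error is drawn, since the table holds 1 value per group. The pairs lie close together from COX7C, at 826.7 FPKM in BB608, down to NDUFS6, at 1.31 FPKM in BB608, and NDUFAB1, NDUFB7 and ATP5D show the widest gaps.

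Complex I stood at 4703 FPKM in BB608 and 4514 FPKM in DMSO, a log2 ratio of the sums of 0.06. Of its 37 members kept, 22 were higher and 15 lower in BB608. Their median log2 fold was 0.03, and -0.01 after shifting all genes by their common median.

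The core subunits kept, which bind NADH and carry electrons through flavin and iron-sulfur clusters to ubiquinone, were all slightly higher. NDUFV1, which holds the NADH and flavin site, stood at 384.3 FPKM in BB608 and 355.1 FPKM in DMSO. NDUFV2, an iron-sulfur subunit of the same module, stood at 98.1 FPKM in BB608 and 92.6 FPKM in DMSO. NDUFS1, the large iron-sulfur subunit, had 72.6 FPKM in BB608 and 65.9 FPKM in DMSO. The folds of these 3 lay between 0.08 and 0.14 on the log2 scale. NDUFS8, a further iron-sulfur subunit, had 218.3 FPKM in BB608 and 186.5 FPKM in DMSO, a log2 fold of 0.23. NDUFS3 had 55.1 FPKM in BB608 and 51.1 FPKM in DMSO. NDUFS7, which lies next to the ubiquinone site, had 12.1 FPKM in BB608 and 9.62 FPKM in DMSO, a log2 fold of 0.34.

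In all, 6 of 6 core subunits kept were higher in BB608, with a median log2 fold of 0.13, against 57.6% of all genes kept. Several small groups of subunits were looked at, and genes of the same pooled libraries are not independent replicates, so this count is a description only. The count was still 6 after the shift and after quantile normalization, with medians of 0.09 and 0.10. With the most abundant coding sequence of each gene in place of the sum, 4 of 6 were higher and the median was 0.19. In that setting NDUFS7 had 0.58 and NDUFV2 0.56, while NDUFS1 had -0.08 and NDUFS3 -0.18. No core subunit had a coding sequence at p under 0.05.

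Among the accessory subunits of complex I, 16 of 30 were higher and 14 lower, with a median log2 fold of 0.01. NDUFS5 and NDUFB9 were the most abundant. NDUFS5 had 499.7 FPKM in BB608 and 490.2 FPKM in DMSO, and NDUFB9 had 435.2 FPKM in BB608 and 462.8 FPKM in DMSO. The NDUFB family, which builds the outer part of the membrane arm, had 4 of 11 members higher and a median of -0.01, although NDUFB7 belongs to it. The NDUFA family had 7 of 14 higher and a median of 0.00. NDUFA3 stood at 174.4 FPKM in BB608 and 138.0 FPKM in DMSO, and NDUFC2 at 159.2 FPKM in BB608 and 126.7 FPKM in DMSO. NDUFA5, in the peripheral arm, had 14.1 FPKM in BB608 and 16.7 FPKM in DMSO, a log2 fold of -0.25. Its most abundant coding sequence went the other way, with a log2 fold of 0.26. NDUFA10 had 14.1 FPKM in BB608 and 15.7 FPKM in DMSO, a log2 fold of -0.16.

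NDUFAB1, the mitochondrial acyl carrier protein that also sits in complex I, had the highest fold of the 76 members kept, with 52.1 FPKM in BB608 and 23.9 FPKM in DMSO, or 1.13 on the log2 scale. Most of that gap came from 1 of its 4 coding sequences, at 21.3 FPKM in BB608 and 0.00501 FPKM in DMSO, with a p of 0.0677 in the authors' deposited table. Its most abundant coding sequence had 28.0 FPKM in BB608 and 20.5 FPKM in DMSO, a log2 fold of 0.45 with an implied SE of 0.36. Without NDUFAB1 the median of complex I was 0.02. NDUFA4 carries a complex I name but is now placed in complex IV; it had 10.5 FPKM in BB608 and 10.6 FPKM in DMSO. NDUFA4L2, its hypoxia-induced relative, was listed at 0.304 FPKM in BB608 and 0.626 FPKM in DMSO and was not tested.

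Complex II, succinate dehydrogenase, has only nuclear-encoded subunits and stood at 243 FPKM in BB608 and 238 FPKM in DMSO. SDHA, the flavoprotein that oxidizes succinate, had 34.8 FPKM in BB608 and 26.1 FPKM in DMSO, a log2 fold of 0.41. Its most abundant coding sequence had a log2 fold of 0.23 with an implied SE of 0.35, so the fold of that sequence was smaller than its error. No error was at hand for the gene sum. The membrane anchors lay closer together between the groups. SDHC had 114.6 FPKM in BB608 and 112.8 FPKM in DMSO, and SDHD had 92.4 FPKM in BB608 and 98.8 FPKM in DMSO. SDHB, the iron-sulfur subunit, was listed at 0.759 FPKM in BB608 and 0.116 FPKM in DMSO in its single coding sequence. Its log2 fold of 2.70 had an implied SE of 2.32 and a p of 0.472 in the authors' deposited table. The median of the 3 members kept was 0.02, and -0.01 after the shift.

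Complex III stood at 1377 FPKM in both groups, and 4 of its 8 members were higher and 4 lower. UQCRC1 and UQCRC2, the peptidase-like core proteins, had log2 folds of 0.13 and 0.05. UQCRC1 had 49.4 FPKM in BB608 and 45.2 FPKM in DMSO, and UQCRC2 had 209.6 FPKM in BB608 and 202.6 FPKM in DMSO. UQCRFS1, the Rieske iron-sulfur protein, had 60.7 FPKM in BB608 and 65.1 FPKM in DMSO. This log2 fold of -0.10 had an implied SE of 0.10, about the size of the fold. UQCRB, a small subunit, had 403.1 FPKM in BB608 and 421.9 FPKM in DMSO. UQCRH, the hinge protein that helps cytochrome c to dock, had 311.0 FPKM in BB608 and 314.8 FPKM in DMSO. UQCRQ had 211.0 FPKM in BB608 and 193.8 FPKM in DMSO, with an implied SE of 0.16 against a log2 fold of 0.12. The median of complex III was 0.01, and -0.02 after the shift. Cytochrome c1, encoded by CYC1 and not covered by the name rule, had 86.5 FPKM in BB608 and 81.2 FPKM in DMSO.

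Complex IV, cytochrome c oxidase, stood at 3418 FPKM in BB608 and 3497 FPKM in DMSO, a log2 ratio of -0.03, and held the 2 most abundant members. COX7C had 826.7 FPKM in BB608 and 875.7 FPKM in DMSO, and COX6B1 had 640.9 FPKM in BB608 and 660.6 FPKM in DMSO. Of 11 members kept, 5 were higher and 6 lower in BB608, with a median of -0.01. COX4I1, which together with COX5A and COX5B packs around the catalytic core, had 284.7 FPKM in BB608 and 274.7 FPKM in DMSO. COX5A had 203.7 FPKM in BB608 and 195.0 FPKM in DMSO. COX5B, at 9.62 FPKM in BB608 and 7.61 FPKM in DMSO, had the highest fold of the complex, 0.34 on the log2 scale with an implied SE of 0.42. COX7B, at 10.1 FPKM in BB608 and 11.1 FPKM in DMSO, had the lowest, -0.13 with an implied SE of 0.15. COX6C had 437.4 FPKM in BB608 and 472.9 FPKM in DMSO.

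FaDu cells carried the broadly expressed isoforms of complex IV in both groups. COX6A1 had 266.0 FPKM in BB608 and 265.6 FPKM in DMSO, COX7A2 had 465.2 FPKM in BB608 and 458.4 FPKM in DMSO, and COX8A had 219.9 FPKM in BB608 and 221.0 FPKM in DMSO. The muscle, lung, testis and other restricted isoforms had no tested coding sequence. COX4I2, the lung isoform of subunit 4, was listed at 0.0417 FPKM in BB608 and at 0 in DMSO. COX6A2, a muscle isoform, was listed at 0 in both groups, and COX7B2 at 0 in BB608 and 0.0464 FPKM in DMSO. COX7A1, a muscle isoform, was listed at 0.152 FPKM in BB608 and 1.28 FPKM in DMSO. COX6B2, a testis isoform, was listed at 0.260 FPKM in BB608 and 0.252 FPKM in DMSO, and COX8C at 0.0633 FPKM in BB608 and 0.109 FPKM in DMSO. COX7A2L, a factor for respiratory supercomplexes that shares the name stem, had 52.5 FPKM in BB608 and 53.1 FPKM in DMSO.

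Complex V stood at 2966 FPKM in BB608 and 3050 FPKM in DMSO, a log2 ratio of -0.04, and 7 of 17 members kept were higher and 10 lower. In the catalytic head, ATP5A1 (alpha) had 374.3 FPKM in BB608 and 382.2 FPKM in DMSO, and ATP5B (beta) had 500.0 FPKM in BB608 and 498.4 FPKM in DMSO. ATP5C1, the gamma subunit whose rotation drives catalysis, had 80.7 FPKM in BB608 and 85.8 FPKM in DMSO. ATP5D, shown above, was the only member of the head and central stalk with a fold past 0.3, and the median of these 5 genes was -0.03.

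The peripheral stalk holds the head still against the rotor. Of its members, 0 of 4 were higher in BB608, against 57.6% of all genes kept, and the median was -0.11. This too is only a description of 4 genes of the same pooled libraries, among several small groups looked at. The stalk comprises ATP5F1, ATP5H, ATP5J and ATP5O. The log2 fold of ATP5J was only -0.004. ATP5H had 225.9 FPKM in BB608 and 248.0 FPKM in DMSO, a log2 fold of -0.13. ATP5O had 448.8 FPKM in BB608 and 476.7 FPKM in DMSO, and ATP5F1 had only 2.70 FPKM in BB608 and 3.19 FPKM in DMSO. The count stayed at 0 of 4 under the shift and under quantile normalization. With the most abundant coding sequences it was 1 of 4, since that of ATP5F1 had a log2 fold of 0.09. No stalk gene had a coding sequence at p under 0.05. The c ring, the rotor through which protons pass, is encoded by 3 genes for the same mature protein. ATP5G1 had 147.6 FPKM in BB608 and 137.8 FPKM in DMSO, ATP5G2 had 154.7 FPKM in BB608 and 156.7 FPKM in DMSO, and ATP5G3 had 214.6 FPKM in BB608 and 211.4 FPKM in DMSO. ATP5J2, a membrane subunit, had 489.1 FPKM in BB608 and 526.8 FPKM in DMSO. The median of complex V was -0.02, and 0.01 with the most abundant coding sequences.

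**Figure D2:**
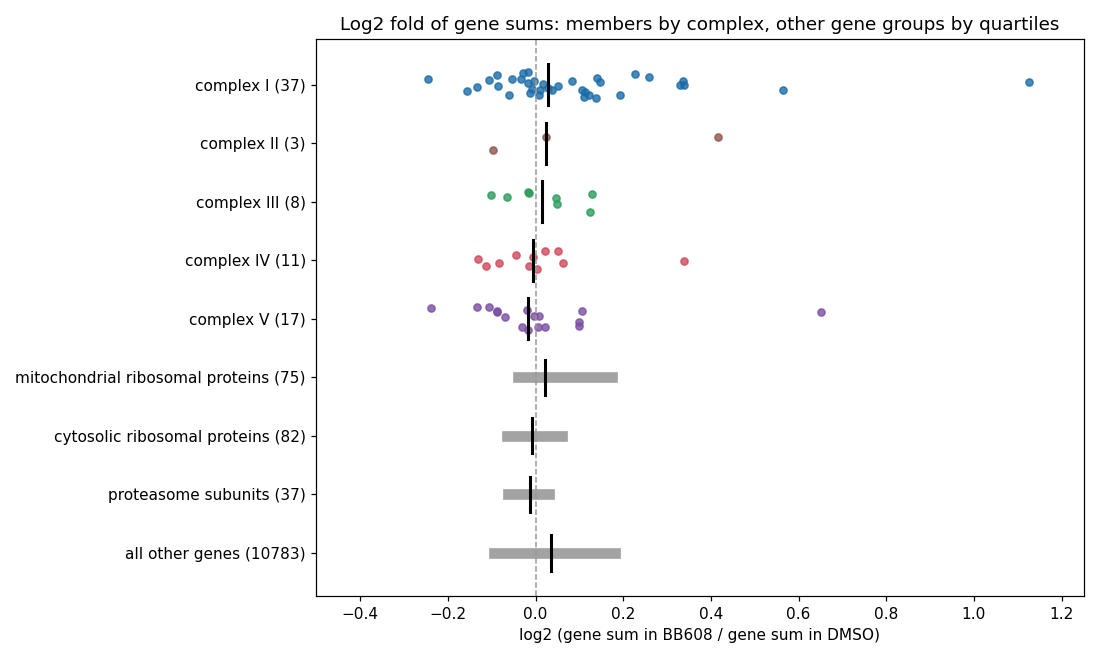
Log2 fold of gene sums, BB608 over DMSO, for each member kept (points, by complex, with the number of genes in brackets) and for 4 other gene groups (grey bars from the first to the third quartile). Black lines are medians. The 5 complexes have medians from -0.02 to 0.03, the median of all other genes is 0.04, and NDUFAB1, ATP5D and NDUFB7 lie farthest to the right. The vertical scatter within a complex has no meaning.

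The 5 complexes thus had medians from -0.02 to 0.03 and log2 ratios of their sums from -0.04 to 0.06. Over all 76 members the median was 0.01, the quartiles were -0.06 and 0.11, and 40 of 76, or 52.6%, were higher in BB608, against 57.6% of the other genes kept. The median absolute fold of members was 0.08, against 0.14 over the other genes. A fold of at least 0.3 in either direction was found in 8 members, or 10.5%, against 24.4% of all genes kept. Abundance was not matched in these comparisons. The cytosolic ribosomal proteins, 82 kept genes that are also abundant, had a median of -0.01, with quartiles of -0.07 and 0.06. The 37 proteasome subunits kept had a median of -0.01, with quartiles of -0.06 and 0.03.

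A missed q does not show that a member stayed level, and the width of the implied intervals differed. The most abundant coding sequence of a member had a median implied SE of 0.19, against 0.30 for the other genes kept. Its implied 95% interval lay within 1 log2 of 0 in 62 of 76 members and within 0.5 log2 in 42. The approximate interval of ATP5J reached past both bounds and is in neither count. In complex III these counts were 8 and 6 of 8, in complex IV 10 and 9 of 11, in complex I 31 and 18 of 37, in complex V 10 and 8 of 17, and in complex II 3 and 1 of 3. NDUFS3, NDUFS6 and NDUFA10 were the least precise, with implied SEs from 1.16 to 1.68.

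**Figure D3:**
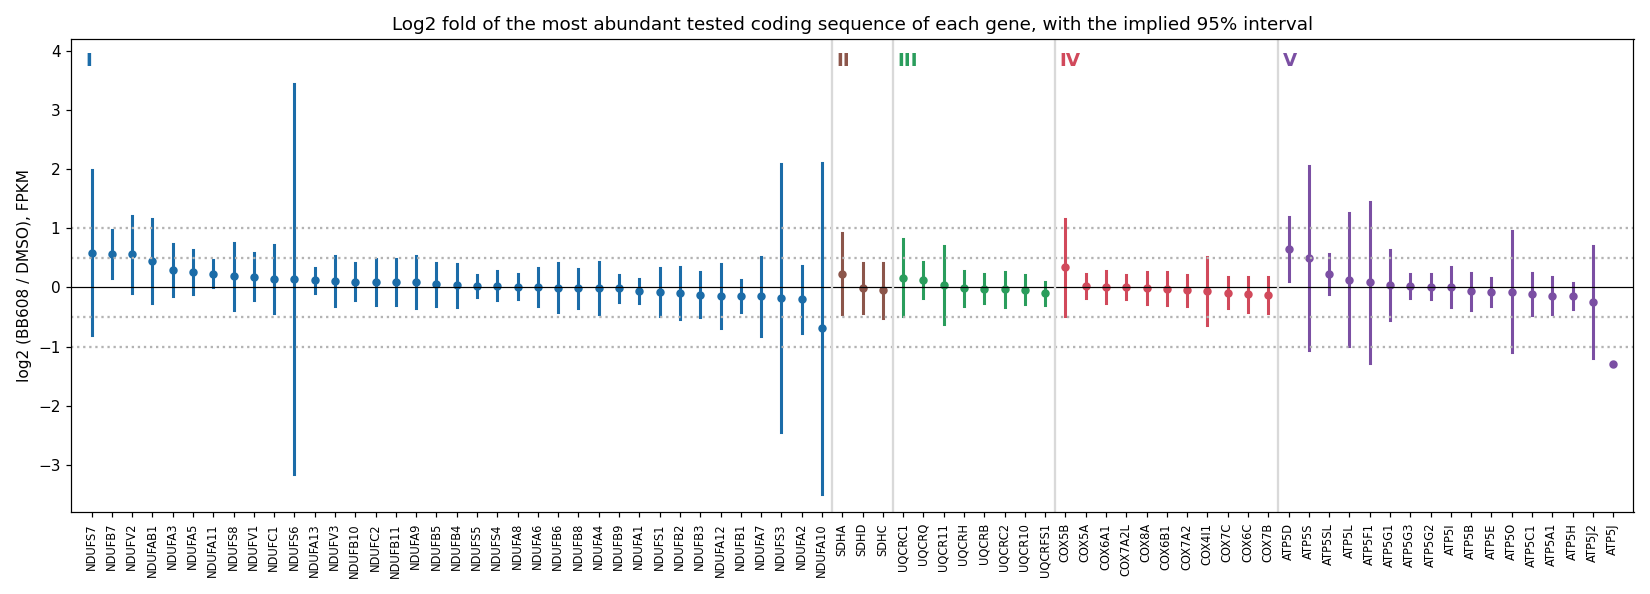
Log2 fold of the most abundant tested coding sequence of each of the 76 members (points), with the implied 95% interval (lines), ordered within each complex. Dotted lines mark 0.5 and 1 log2 on either side. In NDUFB7, ATP5D and NDUFA11 the interval lies above 0, which restates their p under 0.05. The interval of ATP5J is not drawn because its upper bound lies under 0 while the authors' p misses 0.05. NDUFS6, NDUFS3 and NDUFA10 have the widest.

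The coding sequences of 1 gene often differed in direction. Of 54 members with several tested coding sequences, 45 had sequences on both sides of 0, and of 43 members with at least 2 such sequences at 5 FPKM, 27 did. Cufflinks has to apportion reads between overlapping coding sequences, so a lower value in one can stand beside a higher value in another. Whether this lay behind the opposite directions seen here was not tested. ATP5J, the F6 subunit of the peripheral stalk, was an example of opposite directions. One of its coding sequences had 28.98 FPKM in BB608 and 70.7 FPKM in DMSO, with a p of 0.0841 in the authors' deposited table. Another had 55.7 FPKM in BB608 and 14.2 FPKM in DMSO, with a p of 0.235 in the authors' deposited table. The gene sum barely differed, with 84.6 FPKM in BB608 and 84.9 FPKM in DMSO. The first sequence held 34.2% of the gene sum in BB608 and 83.3% in DMSO.

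COX7A2 had a coding sequence at 39.7 FPKM in BB608 and 62.3 FPKM in DMSO and another at 50.9 FPKM in BB608 and 9.73 FPKM in DMSO. Its main coding sequence, at 327.0 FPKM in BB608 and 337.9 FPKM in DMSO, carried most of the gene in both groups. NDUFV2 had 55.2 FPKM in BB608 and 37.4 FPKM in DMSO in one sequence, and 33.2 FPKM in BB608 and 46.4 FPKM in DMSO in another. COX5A had 16.3 FPKM in BB608 and 5.49 FPKM in DMSO in a minor sequence, with a p of 0.0585 in the authors' deposited table. None of these sequences was called, so the division of reads between them is not shown to differ. The members also include the pseudogene names ATP5EP2 and COX6A1P2, and ATP5L2, a relative of ATP5L. Whether reads shared between such copies altered single values was not tested, so single values remain uncertain.

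**Figure D4:**
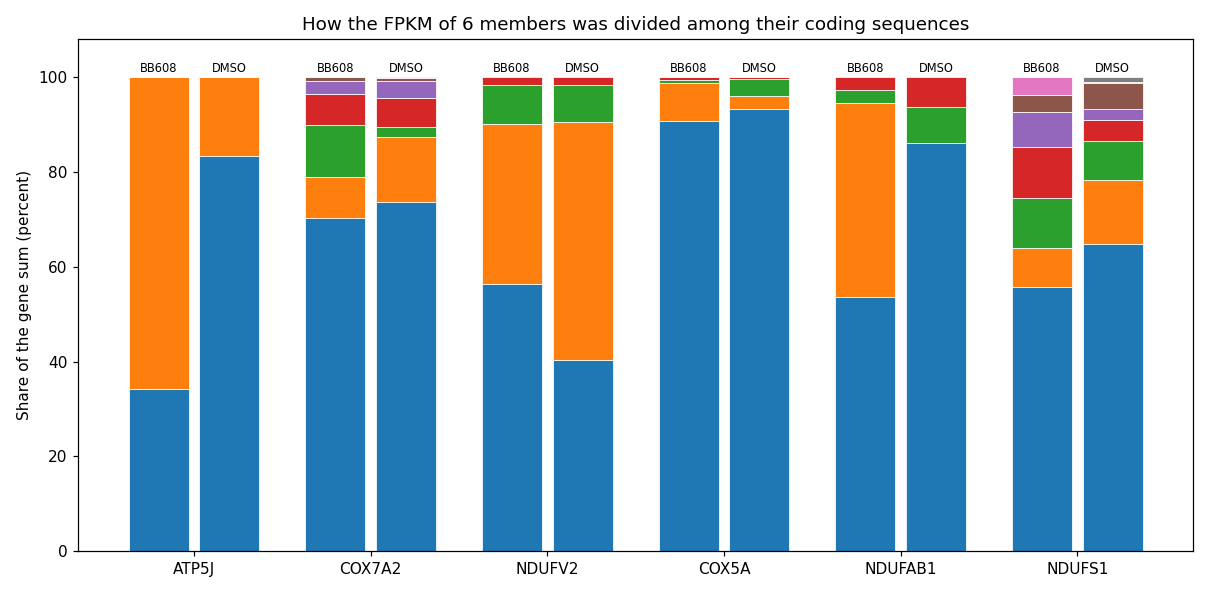
Share of the gene sum, in percent, held by each coding sequence of 6 members, with BB608 left and DMSO right in each pair of bars. Colours separate the coding sequences of 1 gene and carry no meaning between genes. In ATP5J the sequence at the foot of the bar holds 34.2% in BB608 and 83.3% in DMSO, and in NDUFAB1 the second sequence holds 40.9% in BB608 and 0.0210% in DMSO.

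Base composition was a property that the choice by name did not use. Across the 76 members kept, Spearman's rho between the log2 fold of the gene sum and the share of G and C in the coding sequence was 0.49. This is a description across genes of the same pooled libraries, which are not independent replicates. The same rho was 0.18 across 10449 other genes kept, 0.48 across 82 cytosolic ribosomal protein genes, 0.38 across 75 mitochondrial ribosomal protein genes and -0.07 across 37 proteasome subunits. Without the 3 members at p under 0.05 it was 0.43. In the 40 members at 100 FPKM or more in the higher group it was 0.36. Within complexes it was 0.43 over 37 genes in complex I, 0.33 over 8 in complex III, 0.62 over 11 in complex IV and 0.62 over 17 in complex V. With the length of the coding sequence, rho was 0.19 over the 76 members. It was 0.21 in complex I, 0.14 in complex III, 0.80 in complex IV and -0.14 in complex V.

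Grouped by limits set after the values were seen, the 23 members under 48% G and C had a median log2 fold of -0.05. Of these members 5, or 21.7%, were higher in BB608. The 31 members from 48% to 56% had a median of 0.02, and 64.5% were higher. The 22 members at 56% or more had a median of 0.11, and 15 of them, or 68.2%, were higher. Other genes kept had medians of 0.01, 0.01 and 0.10 in the same 3 ranges, and 51.6%, 53.2% and 67.9% were higher. The members rich in G and C included ATP5D, NDUFB7, NDUFS7, NDUFA3 and COX5B, and those poor in G and C included NDUFA5 and ATP5H. COX8A, at 65.7% G and C, had a log2 fold of -0.01, and NDUFA7, at 61.1%, had -0.13. The 11 members kept on chromosome 19, with a median G and C share of 61.3%, had a median log2 fold of 0.12. Of these members 8, or 72.7%, were higher. The 65 members on other chromosomes had a median of 0.00, and 49.2% were higher. Other genes kept had a median of 0.11 on chromosome 19 and 0.03 elsewhere, and 67.5% and 56.9% were higher. The part of base composition in the folds of single members was not tested.

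**Figure D5:**
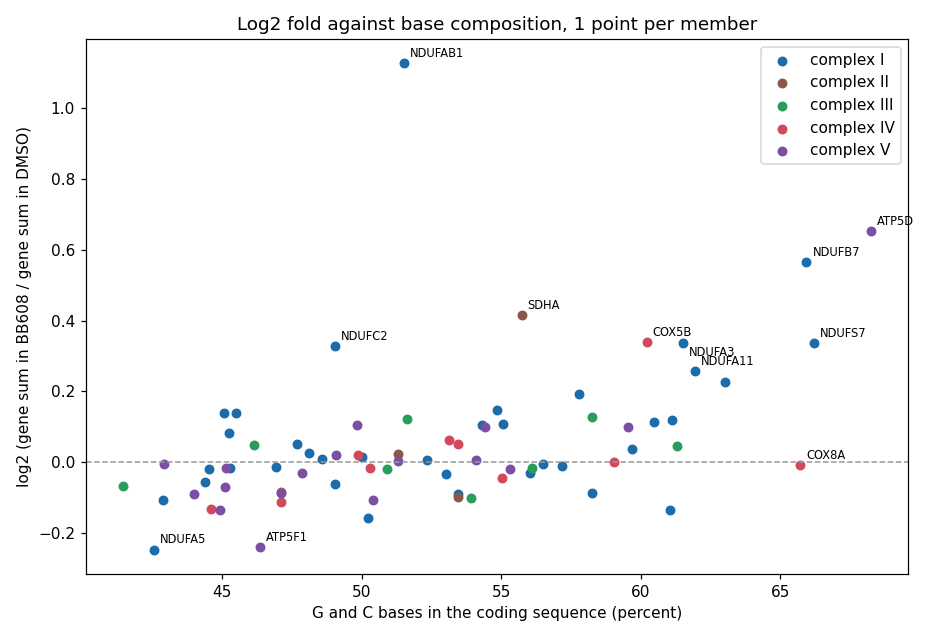
Log2 fold of the gene sum, BB608 over DMSO, against the share of G and C bases in the coding sequence in percent, 1 point per member kept, coloured by complex. ATP5D and NDUFB7 lie at the upper right with 68.3% and 65.9% G and C, NDUFA5 at the lower left with 42.5%, and NDUFAB1 stands apart at 51.5% with a log2 fold of 1.13.

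Promoters were searched for sites of 3 factors known to regulate these genes, from 250 bases before to 50 bases after the start in RefSeq, on both strands, in the 64 of 76 members kept that had an entry. The NRF1 motif (GCGCA and GCGC with any base between them) was found in 15 members, or 23.4%, against 14.4% of 7987 other promoters of genes kept. The ETS motif CCGGAAG, which GABPA binds, was found in 19, or 29.7%, against 24.4%. The YY1 motif (AA, any base, ATGGCG, any base and C) was found in 10, or 15.6%, against 6.15%. Members with each motif had median log2 folds of 0.01, 0.01 and 0.08, and members without it 0.00 in each case. A match is a run of letters and not a site shown to be bound. The factors themselves were not called. NRF1 had 13.6 FPKM in BB608 and 14.3 FPKM in DMSO, GABPA had 1.64 FPKM in BB608 and 2.24 FPKM in DMSO, and YY1 had 35.4 FPKM in BB608 and 34.1 FPKM in DMSO.

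Genes that build, feed or regulate the chain were also not called. In 0 of 16 lists, which also held the ribosomal proteins and the proteasome, did a gene pass Cuffdiff's q, against 1.06% of all tested genes. At an unadjusted p under 0.05, which 9.49% of all tested genes had, there were 3 of 82 tested cytosolic ribosomal proteins, 1 of 37 proteasome subunits and 1 of 15 inner membrane shape and supercomplex factors. The last was APOO, with 2 such sequences, 1 higher and 1 lower in BB608. No gene had such a sequence among 8 electron carriers and entry enzymes, 13 genes of coenzyme Q synthesis, 25 of mitochondrial import and 7 carriers of nucleotides and phosphate. Among 18 regulators of mitochondrial gene expression, 16 had a tested sequence and 1 had a coding sequence at p under 0.05. That gene was PPARGC1B, a coactivator of mitochondrial biogenesis, with a coding sequence at 0.790 FPKM in BB608 and 0.380 FPKM in DMSO and a p of 0.00535 in the authors' deposited table. POLRMT, the mitochondrial RNA polymerase, had 10.4 FPKM in BB608 and 7.26 FPKM in DMSO. TFAM, which packages mitochondrial DNA and acts in its transcription, had 126.3 FPKM in BB608 and 130.7 FPKM in DMSO.

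Of the 13 tested assembly factors of complex I, 1 had a coding sequence at p under 0.05. This was ECSIT, with a sequence lower in BB608 and a p of 0.0372 in the authors' deposited table. The 4, 6, 22 and 4 tested factors of complexes II to V had none. NDUFAF7, a methyltransferase that acts in complex I assembly, had 11.2 FPKM in BB608 and 13.2 FPKM in DMSO. SDHAF1, which helps to insert the iron-sulfur clusters of SDHB, had 10.4 FPKM in BB608 and 9.04 FPKM in DMSO. Cytochrome c, encoded by CYCS, had 201.8 FPKM in BB608 and 226.3 FPKM in DMSO. Of 14 enzymes of the tricarboxylic acid cycle 2 had a coding sequence at p under 0.05. SUCLG2, a subunit of succinyl-CoA synthetase, had that sequence at 10.7 FPKM in BB608 and 7.15 FPKM in DMSO. Its p was 0.0122 in the authors' deposited table. The other enzyme, IDH3A, had its sequence lower in BB608, with a p of 0.04955 in the authors' deposited table. Of 76 mitochondrial ribosomal proteins 4 had such a sequence, and 3 of these sequences were higher in BB608. Among these genes was MRPL52, with 140.1 FPKM in BB608 and 63.8 FPKM in DMSO and a lowest q of 0.379 in the authors' deposited table.

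The 13 subunits encoded in mitochondrial DNA could not be set beside the nuclear ones. Of these, 8 are listed at 0 in both groups and 11 under 0.1 FPKM in both. MT-ND6 had 3.28 FPKM in BB608 and 4.40 FPKM in DMSO, with a p of 0.0703 in the authors' deposited table. MT-ATP6 had 1.46 FPKM in BB608 and 2.00 FPKM in DMSO. Since every respiring cell uses these genes, their listed levels, like that of SDHB, are reported as listed and not as an absence of RNA. All 8 squamous epithelial markers were tested, with a summed 3885 FPKM in BB608 and 3723 FPKM in DMSO. The 5 fibroblast markers summed to 0.865 FPKM in BB608 and 1.01 FPKM in DMSO, with none tested. Of 4 blood and endothelial marker names in the table, CD68 alone was tested, with 20.3 FPKM in BB608 and 22.9 FPKM in DMSO.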

How the data were processed

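RNA extracted with Trizol was made into ribosomal RNA-depleted, strand-marked libraries, per the labels' protocols. Per the submitters' processing notes, TopHat2 2.0.11, Cufflinks 2.2.1 and Cuffdiff were run on hg19. The authors deposited 1 FPKM value per group and coding sequence, pooled over 3 replicates. The authors' deposited table also gives a test statistic, used here as a score, and p-values and q-values over all tested coding sequences. No value per library and no depth was at hand, so no test, SD or interval across samples was computed, and the authors' p-values cover only the spread their model estimated.

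Folds were computed as log2 of BB608 over DMSO from the FPKM values, with Python 3.11.15, pandas 2.3.3 and scipy 1.17.1. The implied SE is an approximation. A gene was kept with a tested coding sequence, no failed status, 1 name and a summed level of 1 FPKM or more in whichever group was higher; 10859 genes passed. Calls used the authors' q under 0.05. Simulated data were used to test how calls were made. Base composition came from GENCODE release 29 on GRCh38 and promoters from RefSeq on GRCh38.p14, matched by name, so no coordinate of one build was used with the other. Of the 76 members kept, 76 had a coding sequence there and 64 a promoter.

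The members and all gene lists were chosen with earlier results of these data known. Named were members at q or p under 0.05, the 2 most abundant and the 2 highest and 2 lowest folds at 10 FPKM or more per complex, and a fixed list of core subunits and isoforms; other members and factors were named after their values were seen. A result on 1 member is not reported here. Alternatives covered abundance floors, normal p-values, a bound on the fold, a pseudocount of 1 FPKM, scaling, the most abundant coding sequence and the exclusion of names that are no subunits.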

Additional observations from a re-analysis of the deposited data

How the results depend on the processing

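No paired analysis was possible because no value per library was at hand. Omitting single replicates and limma without the trend could not be run either, and how far 1 library decides a value is unknown. The count of called members was 0 under every setting tried: floors of 1 and 5 FPKM, normal p-values with and without a shift, and a bound of 1 log2. The bound could only remove calls, so it could not raise the count. The normal p-values used a scale fitted to the authors' p-values, so they are no independent check. The count for the other gene lists was 0 with the floor of 5 FPKM and with normal p-values. Of 43 settings of the medians, 1 moved by more than 0.19, the median implied SE of members: without the filter on low values complex II had 0.22, against 0.02, because SDHB enters. None of 21 settings of the sums moved as far. The shift by 0.03 could not move a median or a sum that far. The medians lie so near 0 that a shift by the median of all genes kept, 0.03, turned complex I to -0.01, complex II to -0.01 and complex III to -0.02, so no direction is read from them.

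Of 172 settings of 43 named folds, 4 moved by more than the implied SE, all with the most abundant coding sequence: NDUFAB1 to 0.45, NDUFA5 to 0.26, NDUFV2 to 0.56 and NDUFS1 to -0.08. Many of the others could not move so far. The shift changed each fold by only 0.03, and a gene with 1 coding sequence keeps its fold when its most abundant sequence is used. Uncalled named folds changed sign in 20 of the 172 settings, 10 of them with the most abundant coding sequence. Leaving out NDUFAB1, the settings of the smaller subunit groups and those of the other lists were added after seeing the data. Depth is unknown. Members with gene sums under 10 FPKM have wide implied intervals, but so do some at higher levels. The implied SE was 1.16 for NDUFS3 and 0.52 for ATP5O.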

Other observations

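Some members that build the same complex in fixed proportion differed widely in listed level. In complex II, SDHC was listed at 114.6 FPKM in BB608 and 112.8 FPKM in DMSO, while SDHB was listed at 0.759 FPKM in BB608 and 0.116 FPKM in DMSO. In the peripheral stalk of the ATP synthase, ATP5O was listed at 448.8 FPKM in BB608 and 476.7 FPKM in DMSO, while ATP5F1 was listed at 2.70 FPKM in BB608 and 3.19 FPKM in DMSO. In complex I, NDUFS6 was listed at 1.31 FPKM in BB608 and 1.14 FPKM in DMSO. These gaps were of similar size in both groups, apart from that of SDHB.

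Among mitochondrial ribosomal proteins, MRPS16 had 11.1 FPKM in BB608 and 1.24 FPKM in DMSO, with a lowest p of 0.245 in the authors' deposited table. Its most abundant tested coding sequence stood at 11.1 FPKM in BB608 and 0.00549 FPKM in DMSO. That log2 fold of 10.98 had an implied SE of 8.73, so the gap rests on 1 sequence listed near 0 in DMSO. MRPL41 had 27.3 FPKM in BB608 and 22.6 FPKM in DMSO and MRPS34 had 18.4 FPKM in BB608 and 11.5 FPKM in DMSO, with lowest p-values of 0.0113 and 0.0155 in the authors' deposited table. TFB1M, which modifies mitochondrial ribosomal RNA, had 1.15 FPKM in BB608 and 2.64 FPKM in DMSO, with a p of 0.264 in the authors' deposited table.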
